A study of Homo sapiens with 11 samples.

Results

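The genes examined here are 9 genes of the retinoid (visual) cycle and of the specialised work of the retinal pigment epithelium (RPE): RPE65, LRAT, RLBP1, RDH5, RDH10, RDH11, STRA6, BEST1 and TTR. They were taken by gene symbol from a deposited table of 60605 features. All 9 were listed, and 7 of them were among the 18828 genes with enough signal to test. Polyadenylated RNA had been sequenced from stable lines of ARPE-19, an established human RPE cell line, after 4 days of expression of an introduced open reading frame. The control lines expressed GFP, a fluorescent protein (n = 3 libraries). The others expressed the transcription factor Oct4, Sox2 or Klf4 alone, or all 3 together (OSK), with n = 2 libraries each. The library names of the 4 factor groups carry the addition "mC", which the GFP names lack, and the labels do not say what it is. Nothing in the labels says that the libraries of a group came from separate cultures or separately derived lines, so p-values measure the spread between these libraries, which may be technical. The RNA is from whole cultures, so fewer cells that express a gene and less RNA of it per cell cannot be told apart.

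In the eye, retinol reaches the RPE from the blood bound to a carrier complex that contains transthyretin, and the membrane receptor STRA6 takes it up. Inside the RPE, LRAT turns retinol into retinyl esters, RPE65 converts the esters to 11-cis-retinol, and dehydrogenases of the RDH family oxidise that to 11-cis-retinal, which the binding protein CRALBP (gene RLBP1) carries before it returns to the photoreceptors. BEST1 is a chloride channel of the basolateral RPE membrane. In the native tissue, RPE65 is among the defining transcripts of the cell type.

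Values are normalised counts, read counts that the depositors divided by a single factor per library, in which 1 read was worth 0.856 to 1.16. Recovered totals ran from 15053300 to 19791775 reads. Between 25853 and 26971 features had a read in 9 libraries, against 42956 in GFP replicate 1 and 32493 in OSK replicate 1. Those 2 libraries also had reads on 67.7% and 23.0% of 405 olfactory receptor genes, against 4.94% to 8.15% in the others. POU5F1 (Oct4), SOX2 and KLF4 were each highest in the lines labelled for them. Their levels in OSK were not always those of the single lines. The log2 change of POU5F1 from GFP was 7.99 in Oct4 and 6.19 in OSK. That of SOX2 was 8.90 in Sox2 and 8.18 in OSK, and that of KLF4 8.47 in Klf4 and 8.54 in OSK. SOX2 was also higher than GFP in Oct4 (1.63) and Klf4 (1.39), and KLF4 in Oct4 (1.92). The part of these levels in the changes of the members was not tested. RPE regulators were well expressed in the GFP libraries, where MITF averaged 3406 ± 176 normalised counts (SD, n = 3) and OTX2 1881 ± 74.3. MITF was lower than GFP in every other line, with log2 changes of -0.85 in Oct4, -2.15 in Sox2, -0.49 in Klf4 and -1.04 in OSK. OTX2 was lower in Oct4 (-0.33) and Sox2 (-0.64) and higher in Klf4 (0.30), and its OSK change of 0.07 did not pass (limma adjusted p = 0.459).

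The promoters of 4 members are shown because their genes behaved differently: RDH5 was highest with Klf4, RDH11 lowest with Klf4, RLBP1 lowest with OSK, and RPE65 near silent throughout. Each window runs 5′ to 3′ from 250 bases before to 50 bases after the RefSeq gene start (build GRCh38.p14). Capitals mark matches, on either strand, to CACCC (a core of KLF sites), TAATCC (a core of OTX and CRX sites) or CATGTG (the core of the M-box); a capital run may be the reverse complement.
RDH5, chr12:55720143-55720442 (+ strand): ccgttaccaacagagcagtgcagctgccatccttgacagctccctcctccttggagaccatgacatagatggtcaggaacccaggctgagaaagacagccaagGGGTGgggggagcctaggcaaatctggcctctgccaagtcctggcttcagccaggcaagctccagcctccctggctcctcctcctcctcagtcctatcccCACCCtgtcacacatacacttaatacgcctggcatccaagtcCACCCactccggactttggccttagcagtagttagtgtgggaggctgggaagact
RDH11, chr14:67695715-67696014 (- strand): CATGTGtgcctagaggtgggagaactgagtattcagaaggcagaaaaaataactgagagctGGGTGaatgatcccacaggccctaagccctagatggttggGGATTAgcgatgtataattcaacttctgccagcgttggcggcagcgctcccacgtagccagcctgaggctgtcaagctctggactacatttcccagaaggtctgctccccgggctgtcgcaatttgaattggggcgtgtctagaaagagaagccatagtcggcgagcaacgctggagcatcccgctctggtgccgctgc
RLBP1, chr15:89221530-89221829 (- strand): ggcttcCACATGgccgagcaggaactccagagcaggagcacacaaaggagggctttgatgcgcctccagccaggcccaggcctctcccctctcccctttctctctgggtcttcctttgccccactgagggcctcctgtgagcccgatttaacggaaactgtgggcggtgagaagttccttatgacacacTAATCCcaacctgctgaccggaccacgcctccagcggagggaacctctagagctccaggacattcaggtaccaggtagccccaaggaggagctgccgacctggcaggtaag
RPE65, chr1:68449905-68450204 (- strand): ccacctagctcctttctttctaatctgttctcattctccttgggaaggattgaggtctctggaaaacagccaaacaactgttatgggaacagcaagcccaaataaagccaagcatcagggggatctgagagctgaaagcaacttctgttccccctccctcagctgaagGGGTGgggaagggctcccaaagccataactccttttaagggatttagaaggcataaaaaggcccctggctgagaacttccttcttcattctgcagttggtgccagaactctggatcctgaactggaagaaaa
RDH5 held 3 CACCC matches, and 11.2% of 35116 promoter windows of this length held 3 or more. One of the STRA6 windows (chr15:74202738-74203037) also held 3. STRA6 averaged 1.73 normalised counts with Klf4, and had 33.8, 6.07 and 1.94 in GFP replicates 1, 2 and 3. That change did not pass (limma adjusted p = 0.201), and the GFP mean rests mostly on GFP replicate 1. A CACCC match was found in 7 of the 10 windows of the members. A single CACCC match was common, in 59.9% of windows, and RPE65 and RDH11 each had 1. RLBP1 had none, but had a TAATCC match 61 bases before the gene start and a CATGTG match 244 bases before it. RDH11 also had a TAATCC match (6.36% of windows) and a CATGTG match (11.1% of windows). Windows were found for 6 of the 9 members, 10 windows in all, because STRA6 has several starts. None of the 10 held the octamer ATGCAAAT (1.77% of windows), the SOX core CATTGT (10.8%) or the E-box CACGTG (7.26%). A match of this kind is a run of letters and not a measured binding site. Whether such matches have a part in the changes of the members was not tested.

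The members spanned a wide range of abundance in the GFP lines, from about 1 read in 3 libraries to over 1000 normalised counts per library. Per kilobase of exonic length, mean normalised counts in GFP were 231 for RDH11, 126 for RDH10, 25.2 for RDH5, 12.2 for BEST1, 10.1 for RLBP1 and 7.51 for LRAT. STRA6, TTR and RPE65 followed at 1.81, 1.39 and 0.126. The place of STRA6 above TTR rests on GFP replicate 1. There STRA6 was at 4.39 per kilobase, against 0.789 and 0.252 in GFP replicates 2 and 3, where TTR was at 1.69 and 0.405. The RPE65 mean also comes from GFP replicate 1 alone. The broadly expressed dehydrogenases RDH11 and RDH10 were thus far above the genes that are most restricted to RPE. LRAT, RDH5, RDH10, RDH11 and BEST1 reached 10 normalised counts in every library, as the plot of values by library shows.

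**Figure D1:**
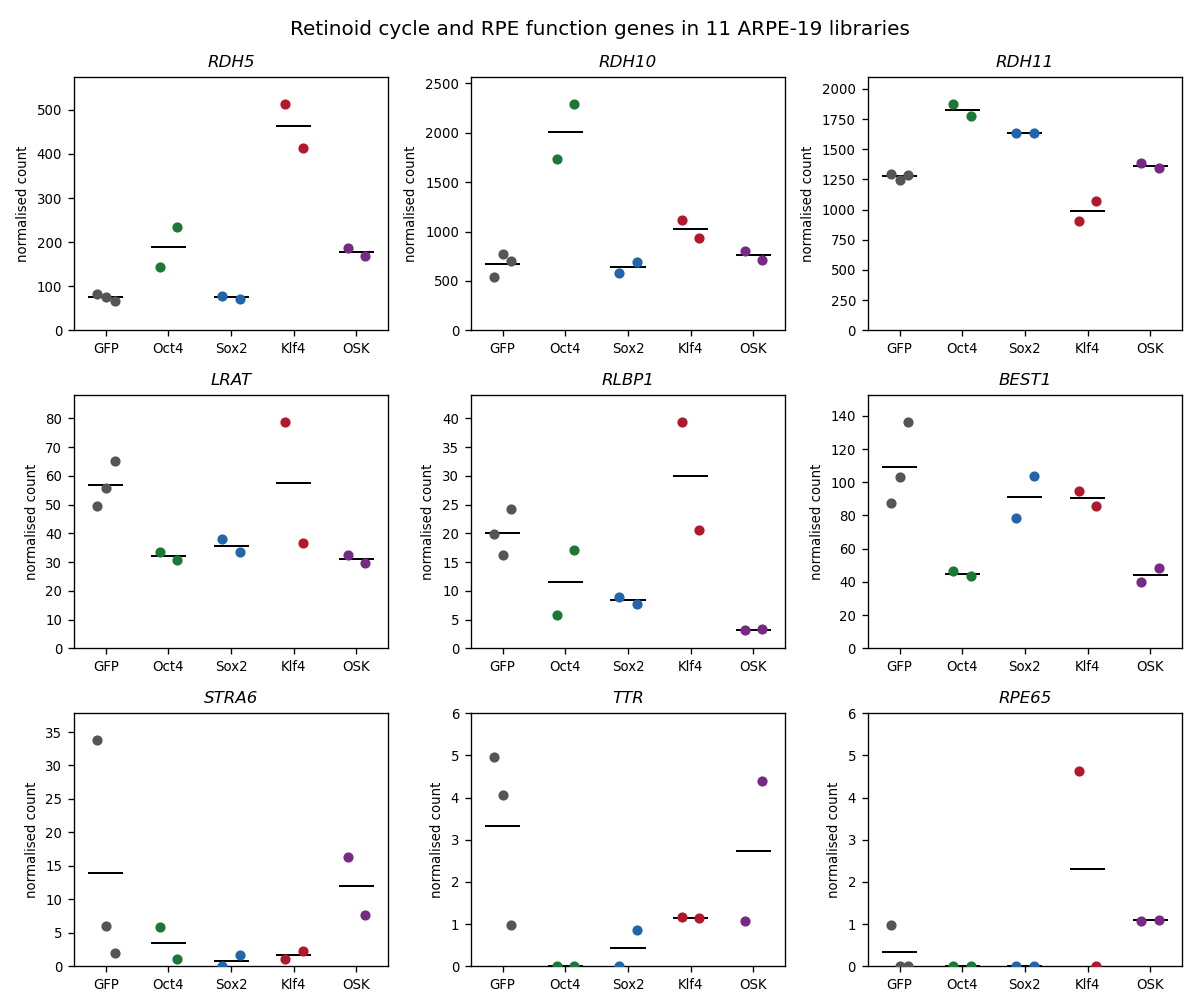
Normalised counts (linear axes from 0, a scale of its own for each gene) of the 9 genes in the GFP, Oct4, Sox2, Klf4 and OSK libraries; each point is 1 library and each bar the group mean. RDH5 sits between 412 and 512 in the Klf4 libraries against 67.1 to 83.4 in GFP, and RLBP1 is at 3.25 and 3.3 in OSK.

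RPE65, the isomerohydrolase of the visual cycle (chr1:68428822-68449959 in GENCODE 29, minus strand), was near silent. It had 7 reads in all 11 libraries together and 0 reads in 7 of them. The highest value was 4.63 normalised counts, in Klf4 replicate 1, where Klf4 replicate 2 had 0. GFP had 0.99, 0 and 0 normalised counts, Oct4 and Sox2 had 0 in every library, and OSK had 1.08 and 1.1. It did not reach 10 normalised counts anywhere and was not tested. A count of 0 allows up to 3 reads, which is 2.57 to 3.48 normalised counts depending on the library.

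TTR, the gene of transthyretin (chr18:31557010-31599021, plus strand), was near silent as well, with 18 reads in total. The GFP libraries had 4.97, 4.05 and 0.97 normalised counts, and the Oct4 libraries had 0 and 0. Sox2 had 0 and 0.86, Klf4 1.16 and 1.14, and OSK 1.08 and 4.4. No library exceeded 5 reads, and TTR was not tested. Plasma proteins of the liver, which is the main source of transthyretin in the body, were low too: the summed level of 8 hepatocyte markers was 103.29 normalised counts in GFP replicate 1, 3.03 and 13.6 in the other GFP libraries, and 10.45 to 47.3 in the libraries of the other lines.

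STRA6, the retinol receptor (chr15:74179466-74212267, minus strand), met the filter through 2 libraries only, and these were the 2 that stand apart. It had 33.8 normalised counts in GFP replicate 1 and 16.3 in OSK replicate 1. The other GFP libraries had 6.07 and 1.94, the other OSK library 7.70, Oct4 5.81 and 1.14, Sox2 0 and 1.71, and Klf4 1.16 and 2.29. Outside those 2 libraries it was at most 7.70 normalised counts, so it was near silent in the remaining 9. CCDC33, a gene on the opposite strand that shares 540 exonic bases (7.02% of STRA6), had 19.9 normalised counts in GFP replicate 1, 6.50 in OSK replicate 1 and at most 0.86 elsewhere. No line differed from GFP in STRA6 by limma (adjusted p from 0.062 for Sox2 to 0.769 for OSK). OSK was above Sox2 by 2.90 on the log2 scale (SE 1.09; limma adjusted p = 0.0455), a comparison of 22 reads with 2, for a ratio of 12.4 (95% counting interval 3.04 to 108.5, counting error only). That call was lost without OSK replicate 1 (2.40, limma adjusted p = 0.23) and under 14 of 22 alternatives in all.

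**Figure D2:**
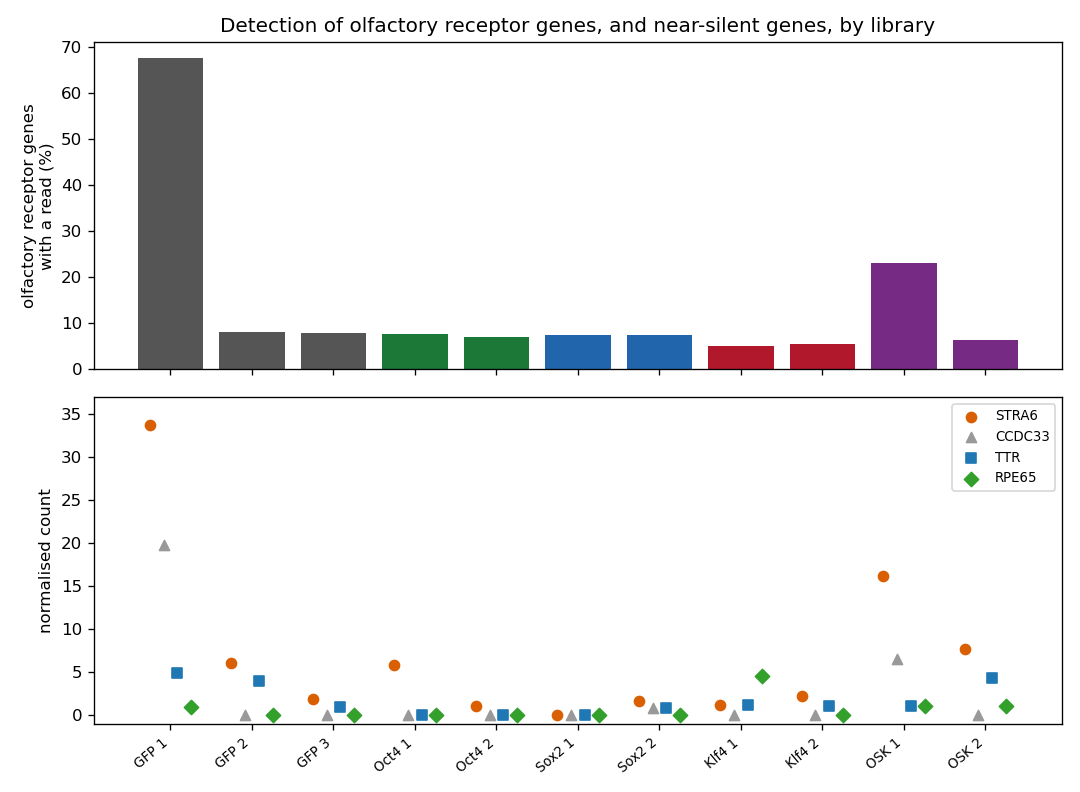
Upper panel: percent of 405 olfactory receptor genes with at least 1 read in each library, as bars from 0. Lower panel: normalised counts of STRA6, of CCDC33, which overlaps it on the other strand, and of TTR and RPE65 in the same libraries; STRA6 and CCDC33 are highest in GFP replicate 1 and next in OSK replicate 1, the 2 libraries with the tallest bars, and TTR and RPE65 stay at or below 4.97.

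Against GFP, the members passing the test were 4 of 7 with Oct4 (37.3% of all tested genes passed), 1 of 7 with Sox2 (41.6%), 3 of 7 with Klf4 (33.5%) and 4 of 7 with OSK (39.7%). These shares are near the background of each comparison or rest on very few genes, so the counts say nothing particular about the set. The direction was mixed. Relative to GFP, 3 members were higher and 1 lower with Oct4 (20.1% and 17.2% of all tested genes), 1 higher and none lower with Sox2 (21.7% and 19.9%), 2 higher and 1 lower with Klf4 (17.6% and 16.0%), and 1 higher and 3 lower with OSK (19.7% and 20.0%). The median log2 change over the 7 tested members was -0.79 with Oct4, -0.24 with Sox2, -0.07 with Klf4 and 0.10 with OSK, where the median of all tested genes lay between -0.02 and -0.01. These medians depended on single libraries. Without GFP replicate 1 they were -0.26, -0.39, -0.16 and 0.04 in the same order, and over the fits that left out 1 library they ran from -0.80 to -0.20, from -0.44 to -0.06, from -0.26 to 0.47 and from -0.36 to 0.12.

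**Figure D3:**
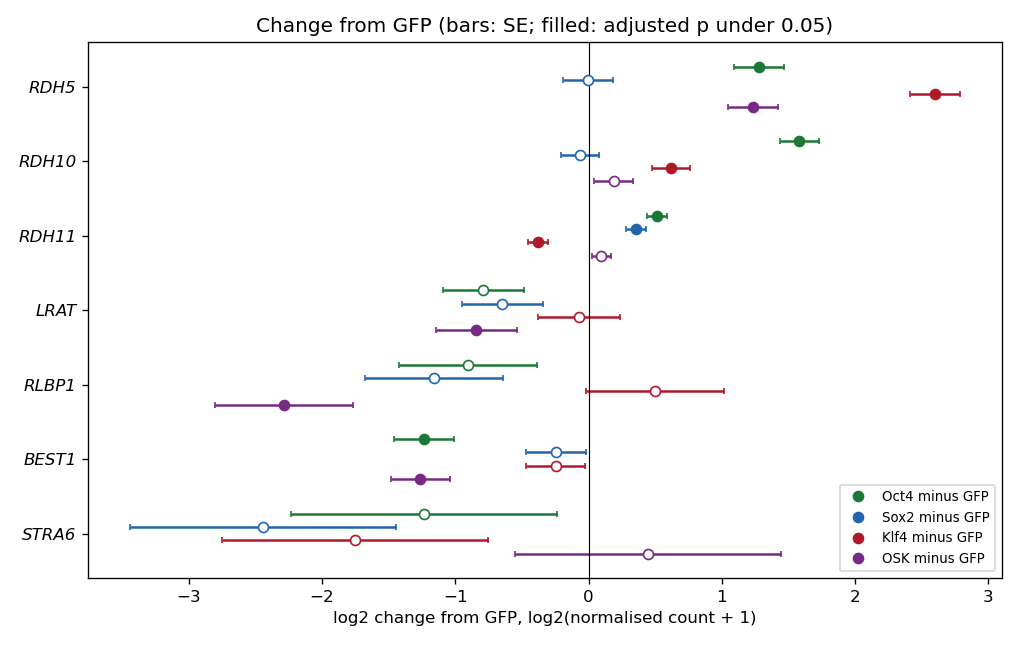
Log2 change from GFP (horizontal axis, on the log2(normalised count + 1) scale) of the 7 tested genes in the Oct4, Sox2, Klf4 and OSK lines; bars are standard errors from limma, and filled circles passed an adjusted p of 0.05 while open circles did not. RDH5 in Klf4 lies at 2.60 and RLBP1 in OSK at -2.29, and STRA6 has the widest bars.

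RDH5, the 11-cis-retinol dehydrogenase of the RPE (chr12:55720367-55724705, plus strand), showed the largest rise from GFP among the members and was highest with Klf4. The GFP libraries had 83.4, 74.9 and 67.1 normalised counts, and the Sox2 libraries 77.4 and 71.9. The Klf4 libraries had 512 and 412, the Oct4 libraries 144 and 233, and the OSK libraries 186 and 169. Thus every Oct4, Klf4 and OSK library was above every GFP and Sox2 library. Relative to GFP the Klf4 lines were higher by 2.60 on the log2 scale (SE 0.19; limma adjusted p = 3.25e-08), a 6.16-fold higher mean. Oct4 raised RDH5 by 1.28 (limma adjusted p = 5.34e-05), and OSK raised it by 1.24 (limma adjusted p = 6.52e-05). For Sox2 the change was -0.00 (95% interval -0.40 to 0.40; limma adjusted p = 0.99).

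In order of mean level RDH5 ran Klf4, Oct4, OSK, GFP, Sox2. Klf4 exceeded both Oct4 (log2 difference of Oct4 minus Klf4 -1.32; limma adjusted p = 7.58e-05) and OSK (-1.37; limma adjusted p = 0.00014). OSK and Oct4 were not told apart (-0.05, 95% interval -0.48 to 0.39). OSK, which also received Klf4, therefore had 0.385 times the Klf4 line's mean RDH5. RDH5 shares 2035 exonic bases (68.2%) with the read-through gene BLOC1S1-RDH5 on the same strand, and how reads were divided between them is not given in the sources used here. Listed on its own, BLOC1S1-RDH5 also rose with Klf4 (GFP mean 41.6, Klf4 mean 96.6 normalised counts; log2 change of 1.19, limma adjusted p = 0.00114), by less than RDH5. With Oct4 and OSK its changes were 0.43 and 0.55 and did not pass (limma adjusted p = 0.178 and 0.0811).

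**Figure D4:**
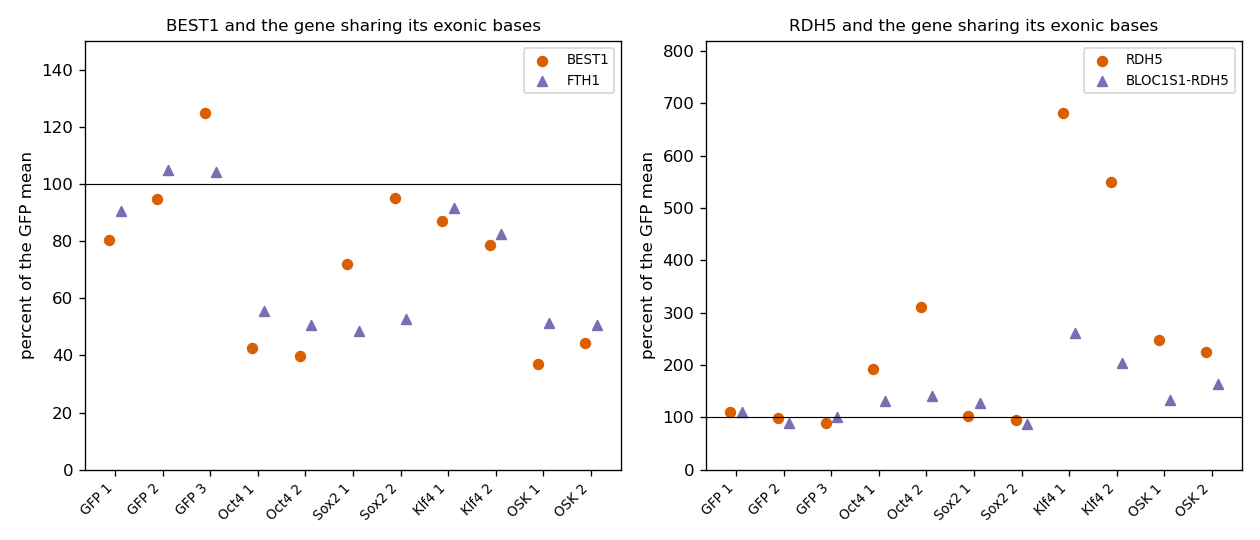
Level in each library as a percent of the GFP mean (horizontal line at 100) for BEST1 and FTH1 (left, opposite strands) and for RDH5 and BLOC1S1-RDH5 (right, same strand); each point is 1 library. RDH5 reaches 682% and 549% in Klf4 where BLOC1S1-RDH5 reaches 261% and 203%, and FTH1 is at 48.7% and 52.7% in Sox2 where BEST1 is at 72.1% and 95.2%.

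RDH10, a retinol dehydrogenase that acts chiefly in the oxidation of retinol to retinal (chr8:73294612-73325281, plus strand), was highest with Oct4. GFP had 542, 770 and 703 normalised counts and Oct4 had 1732 and 2289, with no overlap. Klf4 had 1120 and 932, OSK 804 and 714, and Sox2 580 and 696. Oct4 lines exceeded GFP by 1.58 on the log2 scale (SE 0.14; limma adjusted p = 3.24e-07; 2.99-fold), and Klf4 lines by 0.62 (limma adjusted p = 0.0034). The Klf4 rise did not pass without Klf4 replicate 1 (0.49; limma adjusted p = 0.0696). OSK (0.19; limma adjusted p = 0.335) and Sox2 (-0.06; limma adjusted p = 0.76) did not differ detectably from GFP. OSK was below Oct4 by a log2 difference of -1.39 (limma adjusted p = 3.04e-06), so its RDH10 mean was 0.378 times that of Oct4. RDH10-AS1, antisense to RDH10 with 278 shared bases, averaged 31.1 normalised counts in Oct4 and 12.5 in GFP, a log2 change of 1.24 that did not pass (limma adjusted p = 0.0651), and the use of strand in counting is not stated.

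RDH11, a retinal reductase and dehydrogenase of broad expression (chr14:67676801-67695814, minus strand), moved little but beyond the spread between libraries. GFP had 1296, 1248 and 1287 normalised counts. Oct4 had 1873 and 1777, Sox2 1634 and 1635, Klf4 906 and 1068, and OSK 1385 and 1346. The Klf4 libraries were the lowest and the Oct4 libraries the highest, with no overlap with GFP. Oct4 raised it by 0.51 on the log2 scale (SE 0.07; limma adjusted p = 4.55e-05) and Sox2 by 0.36 (limma adjusted p = 0.00107), and the Klf4 change was -0.38 (limma adjusted p = 0.000952). With OSK it was 0.10 (95% interval -0.06 to 0.26; limma adjusted p = 0.338). Oct4 and Sox2, the first and the second in level, were not told apart (0.16; limma adjusted p = 0.156). In the Klf4 line RDH5 and RDH11 thus changed in opposite directions.

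LRAT, which makes retinyl esters (chr4:154626945-154753118, plus strand), was lower in Oct4, Sox2 and OSK than in any GFP library, though of these changes the OSK one alone passed the test. GFP had 49.7, 55.6 and 65.1 normalised counts, Oct4 33.7 and 30.9, Sox2 38.2 and 33.4, and OSK 32.5 and 29.7. Klf4 had 78.7 and 36.6, a wide pair whose mean, 57.6, was close to the GFP mean of 56.8. The OSK change was -0.84 (SE 0.31; limma adjusted p = 0.0388), while those of Oct4 and Sox2 were -0.79 (limma adjusted p = 0.0541; under 5 of 23 alternatives it passed, among them leaving out GFP replicate 1, with limma adjusted p = 0.0449) and -0.65 (limma adjusted p = 0.105). The OSK call is at the edge of the threshold and was lost under 8 of 23 alternatives, with adjusted p from 0.0155 to 0.172. They include leaving out GFP replicate 2 or 3, or either OSK replicate.

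RLBP1, the gene of the retinal-binding protein CRALBP (chr15:89209869-89221751, minus strand), fell in the OSK line. GFP had 19.9, 16.2 and 24.3 normalised counts, Klf4 39.3 and 20.6, Oct4 5.81 and 17.2, Sox2 8.98 and 7.71, and OSK 3.25 and 3.30. Both OSK libraries had 3 reads, the lowest of all libraries. RLBP1 reached 10 normalised counts in 6 libraries, all of them GFP or Klf4 apart from Oct4 replicate 2. GFP was 6.16 times OSK from 61 reads against 6 (95% counting interval 2.67 to 17.4), and the limma change was -2.29 (SE 0.52; adjusted p = 0.00216). OSK was also below Klf4 (-2.79; limma adjusted p = 0.00199), but it was not separated from Oct4 (-1.38; limma adjusted p = 0.0657) or Sox2 (-1.12; limma adjusted p = 0.133). The levels are of 3 to 34 reads per library, so counting error is a large part of each value. RLBP1 is also a gene of Mueller glia. Of 8 Mueller markers 6 were tested, and against GFP 1 was higher and 2 lower in OSK (19.7% and 20.0% of all tested genes). The number lower was 3 without GFP replicate 1, and 1 without either OSK replicate. Their summed level was 26729 to 26883 in OSK and 19682 to 23290 in GFP, mostly from GLUL, DKK3 and VIM, while AQP4 was at most 6.50 normalised counts.

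BEST1, the bestrophin chloride channel (chr11:61949821-61965515, plus strand), fell with Oct4 and OSK. GFP had 87.4, 103 and 136 normalised counts, Oct4 46.5 and 43.5, and OSK 40.1 and 48.4. Sox2 had 78.5 and 104 and Klf4 94.8 and 85.7, both overlapping GFP. Against GFP the Oct4 change was -1.23 (SE 0.22; limma adjusted p = 0.000372), a mean 0.413 times the control, and the OSK change was -1.26 (limma adjusted p = 0.000261), 0.406 times. With Sox2 and Klf4 the changes were -0.24 and -0.25 (limma adjusted p = 0.416 and 0.436). BEST1 shares 1267 exonic bases (14.2%) with FTH1, a ferritin heavy chain gene on the opposite strand that is far more abundant (17048 ± 1383 normalised counts in GFP, SD, n = 3). FTH1 also fell with Oct4 (-0.91) and OSK (-0.97), each with BEST1, but it fell as much with Sox2 (-0.98; limma adjusted p = 8.66e-08), where BEST1 did not pass. The part of reads from FTH1 in BEST1 was not tested.

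OSK was also compared with each single factor. Of 7 members, 2 differed between OSK and Oct4 (40.3% of all tested genes passed), 4 between OSK and Sox2 (40.5%) and 4 between OSK and Klf4 (21.5%). OSK and Oct4 differed in RDH10 and RDH11 and not detectably in RDH5, LRAT or BEST1, where the 95% intervals of the log2 difference were -0.48 to 0.39, -0.76 to 0.66 and -0.55 to 0.49. OSK was above Sox2 in RDH5 (1.24; limma adjusted p = 0.000151) and below it in BEST1 (-1.02; limma adjusted p = 0.00326) and, more weakly, in RDH11 (-0.26; limma adjusted p = 0.0185, lost under 6 of 23 alternatives). The count of 4 between OSK and Sox2 includes STRA6, which met the filter only through GFP replicate 1 and OSK replicate 1. Its call was lost under 14 of 22 alternatives, so that count is not a fair match to the share of all genes. OSK was below Klf4 in RDH5, RLBP1 and BEST1 (-1.02; limma adjusted p = 0.0064) and above it in RDH11 (0.47; limma adjusted p = 0.000476). The BEST1 difference from Klf4 was lost without Klf4 replicate 1 or OSK replicate 1 (limma adjusted p = 0.0582 and 0.0651).

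Among single factors, Oct4 and Sox2 differed in 3 of 7 members (33.4% of all tested genes passed), Oct4 and Klf4 in 4 (41.7%), and Sox2 and Klf4 in 4 (40.8%). Oct4 was above Sox2 in RDH10 (1.65; limma adjusted p = 6.38e-07) and RDH5 (1.29; limma adjusted p = 0.000139) and below it in BEST1 (-0.99; limma adjusted p = 0.00489). Oct4 was above Klf4 in RDH10 and RDH11 (0.96 and 0.89) and below it in RDH5 and BEST1 (-1.32 and -0.99). Sox2 was below Klf4 in RDH5 (-2.61; limma adjusted p = 4.28e-08), RDH10 (-0.68; limma adjusted p = 0.00239) and RLBP1 (-1.66; limma adjusted p = 0.0283), and above it in RDH11 (0.73; limma adjusted p = 2.17e-06). The RLBP1 difference was lost under 4 of 22 alternatives, among them leaving out either Sox2 replicate or Klf4 replicate 1.

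The other genes of retinoid handling were read from a list of 31 genes, of which 19 were tested. Against GFP, 4 were higher and 4 lower with Oct4 (20.1% and 17.2% of all tested genes), 4 and 8 with Sox2 (21.7% and 19.9%), 5 and 6 with Klf4 (17.6% and 16.0%), and 2 and 5 with OSK (19.7% and 20.0%). The counts moved with single libraries: without Sox2 replicate 2 they were 2 and 4 with Sox2, without Sox2 replicate 1 they were 2 and 5, and without Oct4 replicate 1 they were 3 and 2 with Oct4. The median log2 change of those tested was -0.10, -0.47, -0.08 and -0.12 in the same order, and without GFP replicate 1 it was -0.15, -0.29, -0.07 and 0.01. The Klf4 median was 0.18 without Klf4 replicate 2. BCO2, a carotenoid-cleaving enzyme, fell in every line: it averaged 1598 ± 135 normalised counts in GFP (SD, n = 3), 551 in Oct4, 125 in Sox2, 892 in Klf4 and 371 in OSK. Its log2 changes were -1.53, -3.67, -0.84 and -2.10 (limma adjusted p from 3.51e-13 for Sox2 to 6.15e-06 for Klf4). BCO1, which cleaves beta-carotene to retinal, was at 388 and 406 normalised counts with Oct4, where the GFP libraries had 14.9, 1.01 and 2.92. This is a log2 change of 6.31 (SE 0.73; limma adjusted p = 4.69e-06), or 7.15 without GFP replicate 1. RETSAT (retinol saturase) rose with OSK (0.90; limma adjusted p = 4.11e-08) and Klf4 (0.61) and was lower by a smaller amount with Oct4 (-0.25) and Sox2 (-0.24). RBP5 rose with OSK (0.91; limma adjusted p = 0.000357), Klf4 (0.97) and Oct4 (0.59). SCARB1, a lipoprotein receptor, fell with OSK (-0.69; limma adjusted p = 1.82e-05) and Klf4 (-0.36). LIPE, hormone-sensitive lipase, rose with Klf4 (1.36; limma adjusted p = 2.01e-06) and fell with Sox2 (-0.55; limma adjusted p = 0.00544). Several of these smaller changes depended on a single library. The Oct4 changes of RETSAT and RBP5 were -0.227 and 0.495 without Oct4 replicate 1. Those of RETSAT and LIPE with Sox2 were -0.208 and -0.422 without Sox2 replicate 2. For SCARB1 with Klf4 the change was -0.326 without Klf4 replicate 2. All of these calls were lost in those fits. In Sox2, RBP3 had 0 reads in both libraries; the GFP values were 11.9, 4.05 and 1.94 normalised counts, the highest in GFP replicate 1. Its call (limma adjusted p = 0.0469) was lost under 11 of 22 alternatives, among them leaving out GFP replicate 1 (limma adjusted p = 0.0956).

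Of 12 genes of retinoic acid synthesis, breakdown and receptors, 10 were tested. Against GFP, 2 were higher and 4 lower with Oct4 (20.1% and 17.2% of all tested genes), 1 and 6 with Sox2 (21.7% and 19.9%), 2 and 2 with Klf4 (17.6% and 16.0%), and 2 and 5 with OSK (19.7% and 20.0%). The Klf4 counts were 3 higher and 4 lower without GFP replicate 1, and 3 and 1 without Klf4 replicate 1. ALDH1A1, which makes retinoic acid, fell with Oct4, Sox2 and OSK (-1.64, -3.25 and -1.70; limma adjusted p = 0.00389, 6.1e-06 and 0.00274). The Oct4 call was lost without Oct4 replicate 1 (limma adjusted p = 0.0709) and the OSK call without OSK replicate 2 (limma adjusted p = 0.0512). ALDH1A3, from the same family, fell with Sox2 (-2.47; limma adjusted p = 1.79e-12), Oct4 (-1.40; limma adjusted p = 1.32e-09) and OSK (-0.67; limma adjusted p = 4.65e-06), while its Klf4 change was -0.12 (limma adjusted p = 0.252). CYP26B1, which degrades retinoic acid, rose with Oct4 (1.25), Sox2 (1.52) and OSK (0.63). RARA, a retinoic acid receptor gene, rose with Klf4 (1.78; 1717 to 5854 normalised counts; limma adjusted p = 6.71e-10) and OSK (0.51; limma adjusted p = 0.000276), and fell with Sox2 (-0.94; limma adjusted p = 4.35e-07) and Oct4 (-0.56; limma adjusted p = 0.000127). RARB, another receptor gene, rose with Oct4 (0.78; limma adjusted p = 3.18e-06) and fell with Klf4 (-0.94; limma adjusted p = 5e-07), OSK (-0.50) and Sox2 (-0.43). CYP26A1, from the same family as CYP26B1, fell with Sox2 (-2.96; limma adjusted p = 8.52e-05) and OSK (-1.59; limma adjusted p = 0.0129). The OSK call was lost without OSK replicate 1 (limma adjusted p = 0.152), also when GFP replicate 1 was left out with it (limma adjusted p = 0.111).

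The wider RPE programme was read from 35 genes of transport, barrier and secretion (33 tested) and from 21 regulators and melanin genes (16 tested). In the first, 11 rose and 14 fell with Oct4 (20.1% and 17.2% of all tested genes), 10 and 17 with Sox2 (21.7% and 19.9%), 9 and 10 with Klf4 (17.6% and 16.0%), and 11 and 17 with OSK (19.7% and 20.0%). Fewer rose without single libraries: 7 with Oct4 without Oct4 replicate 1, and 5 and 6 with Sox2 without Sox2 replicates 1 and 2. TRPM1, a cation channel, averaged 743 normalised counts in GFP, 112 in Oct4, 2.97 in Sox2 and 74.7 in OSK, and fell in those 3 lines (limma adjusted p from 2.2e-09 to 0.000119). Its Klf4 change was -0.79 (limma adjusted p = 0.202). SLC6A20, an imino acid transporter, averaged 221 normalised counts in GFP and had 1 and 2 reads in the Sox2 libraries (limma adjusted p = 3.78e-10). It also fell with Oct4 (-1.52) and OSK (-1.44), calls that were lost without Oct4 replicate 1 (limma adjusted p = 0.0611) and without OSK replicate 2 (limma adjusted p = 0.0545). CLCN2, a chloride channel, rose with Klf4 (2.56; limma adjusted p = 3.56e-10) and OSK (2.26; limma adjusted p = 9.37e-10), and MERTK, a receptor for the uptake of photoreceptor outer segments, rose with Oct4 (1.28; limma adjusted p = 0.000216) and OSK (1.05; limma adjusted p = 0.00107) and fell with Klf4 (-1.16; limma adjusted p = 0.00062). MERTK also passed with Sox2 (0.57; limma adjusted p = 0.0447), a call lost under 12 of 23 alternatives. SERPINF1, the secreted factor PEDF, fell with Oct4 (-2.71; limma adjusted p = 1.12e-07), Sox2 (-3.62; limma adjusted p = 2.94e-09) and OSK (-1.63; limma adjusted p = 2.57e-05). In the second list, to be read against the same shares of all tested genes, 1 rose and 12 fell with Oct4, 2 and 11 with Sox2, 3 and 5 with Klf4, and 3 and 6 with OSK. The 2 rises with Sox2 became 0 on leaving out GFP replicate 2 or either Sox2 replicate, and 1 on leaving out any Oct4 or OSK replicate or Klf4 replicate 1; the rise with Oct4 was lost without Oct4 replicate 2. With Klf4, 4 rose and 3 fell without Klf4 replicate 2. PMEL, a melanosome protein, averaged 5147 normalised counts in GFP, 612 in Oct4, 140 in Sox2, 1270 in Klf4 and 809 in OSK. TYR, tyrosinase, averaged 480 normalised counts in GFP, 44.8 in Oct4, 14.3 in Sox2 and 86.7 in OSK, and passed in those 3 lines (limma adjusted p from 1.73e-08 to 4.83e-05). SOX9 and SIX3, transcription factor genes, rose with Klf4 (1.32 and 0.86) and OSK (0.36 and 1.03; limma adjusted p from 2.48e-09 to 0.00172 over the 4 changes). Both genes fell with Oct4 (-0.734 and -1.003) and with Sox2 (-1.221 and -0.368; limma adjusted p from 3.515e-09 to 0.000144 over these 4 falls).

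Markers of other cell types moved with the lines. Of 11 fibroblast and mesenchymal markers, 8 were tested. Against GFP, 4 rose and 1 fell with Oct4 (20.1% and 17.2% of all tested genes), 5 and 2 with Sox2 (21.7% and 19.9%), 0 and 5 with Klf4 (17.6% and 16.0%), and 0 and 6 with OSK (19.7% and 20.0%). Without GFP replicate 1, 2 fell with Oct4 and 1 with Sox2. None fell with Oct4 without Oct4 replicate 2, and 1 fell with Sox2 without Sox2 replicate 2. Their summed level was 86419 to 95746 normalised counts in Oct4, 62851 to 77369 in Sox2, 21762 to 30022 in GFP, 11214 to 14102 in Klf4 and 9370 to 10997 in OSK. FN1, fibronectin, accounted for much of it in Oct4. FN1 rose with Oct4 and Sox2 (log2 changes 3.31 and 2.66), and so did ACTA2 (2.76 and 1.99). PDGFRB fell with both (-0.39 and -0.81), and THY1 fell with Sox2 (-1.11). DCN was at 0 in both Oct4 and both Sox2 libraries, which alone does not show a fall from GFP. The part of these markers in the changes of the members was not tested.

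Genes with the pattern most like each member were found by the Pearson correlation of log2(value + 1) over the 11 libraries, among 10911 tested genes with a mean of at least 100. The libraries share their groups, so the correlations describe the group pattern. TNFRSF1A (0.97) and MMP28 (0.96) were closest to RDH5, with MMP28 rising from 111 normalised counts in GFP to 1066 in Klf4. YWHAZ (0.97) was among the closest to RDH10. AMIGO2 (0.99) and ZSWIM4 (0.98) were closest to RDH11, and AMIGO2 ran from 55.7 in Klf4 to 1199 in Oct4. DEAF1 and KRT18 (both 0.95) were closest to BEST1, and KNOP1 and GMEB1 (0.91 and 0.90) to LRAT.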

How the data were processed

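RNA was extracted with TRIzol, enriched with oligo(dT) and made into libraries by the NEBNext Ultra II RNA kit, per the labels' protocols. The submitters' processing notes name STAR 2.7.1a and featureCounts 1.6.2, with human and mouse builds but no roles. The annotation, use of strand and scaling are not given in the sources used here. The deposited values are a signal: gene counts divided by 1 factor per library, rounded. In every library 100% of values up to 200 were whole multiples of 1 read (tolerance 0.0061), so reads were recovered. For GFP replicates 1 and 2 that step is near 1.

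Because these values are no raw counts, limma 3.58.1 (R 4.3.3, trend) was fitted to log2(value + 1), which understates changes of low genes. Genes with at least 10 in at least 2 libraries entered, with all 11 libraries in a single fit (degrees of freedom 6 residual and 9.21 prior). The Benjamini-Hochberg adjustment ran over 18828 genes, with a threshold of 0.05, in 10 comparisons. The 4 with GFP share its libraries. The procedure was also run on simulated counts with the same dispersion for every gene, changes in OSK only and no outlying library. That setting is simpler than these data, so the run does not show how the procedure performs on them. Alternatives were edgeR 4.0.16 and DESeq2 1.42.0 on recovered reads, other scaling, pseudocounts of 0.5 and 5, other filters, only the groups compared, a replicate block and leaving out libraries. TMM scaling over all features was chosen after seeing the data. Gene positions are from GENCODE 29 (GRCh38) and promoters from RefSeq.

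The members and lists were chosen with earlier results of these data known. Besides the members, the text names up to 2 rises and 2 falls per list and comparison with GFP, among genes that passed without overlap of libraries, and the 2 genes most like each member. Values of RBP3, PMEL, MITF, OTX2, AQP4, DCN, GLUL, DKK3 and VIM are partly given outside that rule. Some genes that the rule names are not reported here.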

Additional observations from a re-analysis of the deposited data

How the results depend on the processing

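Of 33 member changes that passed the test, 25 passed under every alternative run and 8 were lost under at least 1. Of 37 that did not pass, 8 passed under at least 1. No member change that passed reversed its direction. Of all tested genes, from 21.5% (OSK and Klf4) to 41.7% (Oct4 and Klf4) passed in a comparison, so the 33 are to be read against those shares. The 33 include STRA6 between OSK and Sox2, a gene that met the filter only through GFP replicate 1 and OSK replicate 1. Members called between Sox2 and GFP numbered 1, and 2 with edgeR (TMM or RLE factors), DESeq2 or the replicate block, where STRA6 was added (edgeR adjusted p = 0.0381), and from 1 to 2 on leaving out 1 library. Members called between OSK and Sox2 numbered 4, and 2 with no filter, and from 1 to 4 on leaving out 1 library, the fewest without Sox2 replicate 2. The other counts of members stayed within 1.5 times. Leaving out a library of a pair assumes that the lone library varies like the others. Over all genes, 4049 calls between OSK and Klf4 became 2574 without Klf4 replicate 1 and 2519 without OSK replicate 2. BEST1 between Sox2 and OSK or Oct4 was lost without Sox2 replicate 2 (limma adjusted p = 0.0512 and 0.0684). The replicate numbers are not shown to pair the libraries. Deviations from the group mean correlated from -0.0693 to 0.435 between same-numbered libraries of different groups, with 2 of 20 above 0.1. Those 2 were both between GFP and OSK, at 0.435 for replicate 1, the libraries that stand apart, and 0.31 for replicate 2. Between groups of 2 libraries the value for replicate 2 repeats that for replicate 1 by construction, so the 20 are not separate checks. The deviations of OSK replicate 2 are those of OSK replicate 1 with the sign reversed, and the GFP deviations cancel out. The 0.31 is therefore not separate from the 0.435 either. With the block, the LRAT change in OSK was -0.74 (limma adjusted p = 0.107). At 3 to 34 reads RLBP1 is limited by depth, as are STRA6, TTR and RPE65.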

Other observations

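Of 15 photoreceptor markers 6 were tested; ROM1, a disc rim protein, rose with Sox2 (log2 change 0.98; limma adjusted p = 0.00207), and NRL, a rod transcription factor, passed with Oct4 (1.11; limma adjusted p = 0.0489) but lost that call under 16 of 23 settings. The summed photoreceptor level was 288 to 443 normalised counts over all libraries, most of it PDE6B. Of 5 choroid plexus markers 3 were tested, and CLIC6, an intracellular channel protein, fell with Sox2 (-1.16; limma adjusted p = 3.9e-07), Klf4 (-0.58; limma adjusted p = 0.000636) and OSK (-0.94; limma adjusted p = 4.45e-06). IGFBP2 from the same list rose with Oct4 (0.95; limma adjusted p = 7.92e-05). SERPINA1, a hepatocyte marker, passed with OSK (2.42; limma adjusted p = 0.0398) and lost that call under 14 of 22 settings; its GFP libraries ran from 0 to 18.9 normalised counts.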
